A study of Mus musculus with 35 samples.

Results

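The population described here is CD8 T lymphocytes of mouse bone marrow, the cytotoxic arm of the T cell lineage. It comprises the 6 ten-cell arrays labelled CD8 among the 35 arrays of the series, chosen by that label alone, and these arrays hold 3 samples named B, C and D with 2 arrays each. Cells positive for CD3 and CD8 were sorted from the marrow of untreated male C57Bl/6 CD45.1 mice, a strain that carries the CD45.1 allele of the leukocyte antigen CD45, 10 to a well, and each sample combined 4 such amplifications, which gives 40 cells a sample and 120 cells in all. The mice were 7 to 9 weeks old. The other ten-cell samples are side population (SP) stem cells of the same strain from the lower (LSP) and upper (USP) region of the Hoechst dye plot, 3 samples each, with the sex labelled male for LSP and not labelled for USP, and they enter only where they show what sets the CD8 samples apart. The methods give 1 mouse as the marrow source of an experiment but do not tie samples B, C and D to animals, so the spread between them may hold differences between sorts, wells and amplifications as well as between mice.

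Mature CD8 T cells recognize peptides on MHC class I through the T cell receptor, which signals through the CD3 chains and the kinase ZAP70, while CD8 binds the MHC molecule itself. Naive cells are long-lived, quiescent and maintained by interleukin 7; effector cells carry granules of perforin and granzymes; and memory cells, for which bone marrow is a known reservoir, keep part of that equipment in a resting state. RNA was amplified by a method that copies only a short 3′ stretch of each message. Every value below is a scaled fluorescence intensity of a probe set, or its log2, called the level; intensities under 128 (log2 7) were set to that floor. A probe set was called detected in a sample when both of its arrays exceeded the floor. Brightness depends on the probes and on the 3′ end they match, so the levels of different genes are not transcript numbers, and a gene at the floor was not detectable rather than absent. Fewer cells with a transcript and less of it per cell cannot be told apart in these pools.

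The receptor complex that names the population was bright in every sample. Zap70 read 7404 and 7967 on the arrays of sample B, 7430 and 6327 in C, and 7485 and 7458 in D. Cd3d, a signaling chain of the receptor complex, read 4503 and 5271 in B, 3750 and 3330 in C, and 6000 and 6104 in D. Cd8b1, the beta chain of CD8, read 4283 and 4160 in B, 5499 and 5192 in C, and 3543 and 3473 in D. No sample stood out over these genes, since D was the highest for Cd3d and the lowest for Cd8b1. Cd8a, the alpha chain, was 2334 and 2234 in B against 1290 and 1123 in C and 1181 and 1107 in D, and so its sample means spanned 2.00-fold. Il7r, the receptor for interleukin 7, lay between 3434 and 5483 on the 6 arrays. Of the 7 receptor and coreceptor genes with a probe set of their own, 6 were detected in all 3 samples, among them Cd3e at a level of 11.18 ± 0.30 (SD, n = 3), Cd3g at 11.03 ± 0.26 and Cd247, the zeta chain, at 9.23 ± 0.31. The label therefore held on its 5 defining markers in each sample. Cd4, the coreceptor of helper cells, stayed at or under an intensity of 45.8 on every array. By the probe set that represented each gene, none of the 6 CD4 and regulatory T cell genes or the 3 gamma delta T cell genes was detected. Another probe set of Zbtb16, a gene of these lists, was detected faintly in B (210.5 and 145.2) and in D (155.6 and 207.5).

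These 3 promoters are shown because their genes carry the label most clearly; each window runs from 250 bases before to 50 after an annotated start (RefSeq, build GRCm38.p6). Capitals mark CTTTGA, a core of TCF and LEF sites, and TGTGGT, a core of RUNX sites, on either strand (reverse complements TCAAAG and ACCACA). Both motifs were chosen after the sequences had been read.
Cd3d, chr9:44981536-44981835, plus strand: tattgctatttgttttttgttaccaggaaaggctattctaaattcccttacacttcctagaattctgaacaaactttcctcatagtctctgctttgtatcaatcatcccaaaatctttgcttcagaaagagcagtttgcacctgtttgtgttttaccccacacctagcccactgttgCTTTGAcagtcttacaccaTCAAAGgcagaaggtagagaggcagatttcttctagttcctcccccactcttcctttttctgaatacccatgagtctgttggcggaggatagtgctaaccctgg
Zap70, first of 3 starts, chr1:36761548-36761847, plus strand: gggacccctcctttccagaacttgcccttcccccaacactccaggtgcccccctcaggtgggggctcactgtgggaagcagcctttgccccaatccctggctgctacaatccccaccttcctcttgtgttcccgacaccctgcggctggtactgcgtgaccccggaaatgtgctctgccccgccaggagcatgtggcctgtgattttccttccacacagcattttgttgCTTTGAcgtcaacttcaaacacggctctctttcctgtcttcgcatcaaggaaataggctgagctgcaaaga
Il7r, chr15:9529827-9530126, minus strand: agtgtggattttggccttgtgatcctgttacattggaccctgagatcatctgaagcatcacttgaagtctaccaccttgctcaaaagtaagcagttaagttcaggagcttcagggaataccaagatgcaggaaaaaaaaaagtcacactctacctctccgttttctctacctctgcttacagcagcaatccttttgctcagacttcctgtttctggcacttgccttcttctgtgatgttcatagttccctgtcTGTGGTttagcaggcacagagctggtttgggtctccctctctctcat
Cd3d held 2 matches to CTTTGA and Zap70 held 1, while Il7r held 1 match to TGTGGT. A second Zap70 start held 1 match to TGTGGT, and the Cd8a window held neither motif. Of 32851 windows of this length, 16.0% held CTTTGA and 16.8% held TGTGGT, so these matches describe letters only.

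The brightest probe sets combined housekeeping transcripts with a few lymphocyte genes. Among probe sets that name 1 gene, and outside ribosomal protein genes, the highest mean levels belonged to Uhmk1 (13.64 ± 0.22, SD, n = 3), Use1, Actb, Npc2, Grk6, Cbfb, Jund, Gimap4, Ubl5 and Zap70 (12.84 ± 0.09). Uhmk1 encodes a kinase with an RNA-binding domain, Use1 a membrane fusion protein of the endoplasmic reticulum, Npc2 a lysosomal cholesterol carrier, and Grk6 a kinase that desensitizes chemokine receptors. Cbfb, the partner of RUNX factors in T cells, read between 5935 and 9996 on the 6 arrays. Gimap4, a GTPase of lymphocytes, read between 6594 and 8451, with sample means within 1.17-fold. Next followed Mrpl52, Ska3, Cytip, which anchors cytohesin in lymphocytes, Arpc4 and a second Actb probe set, which build actin filaments, and then Mcrip1, Eif3k, Krtcap2, Wdr92 and Emc10. All 20 were detected in each sample and 19 had sample means within 2-fold, the exception being Mrpl52 of the mitochondrial ribosome, which was lower in C (4427 and 4158) than in B (7602 and 8795) or D (9782 and 9956). Of 42 ribosomal protein genes, 23 were detected in all 3 samples, and their highest mean level was 13.51.

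Some T cell signaling genes downstream of the receptor matched closely between the samples, and others did not. Of 31 such genes, 17 were detected in all 3 samples, 2 in 2, 1 in 1 and 11 in none; over all 8251 genes with a probe set of their own, 24.4% were detected in all 3. Ptprc, which encodes CD45, was 9.94, 9.99 and 10.02 in B, C and D. Ptpn22, a phosphatase that restrains the receptor, was 11.32, 11.24 and 11.54. Coro1a, an actin regulator needed for T cell survival, was 10.98, 10.87 and 11.14. Sample means of these 3 genes spanned at most 1.23-fold. Among genes of this list detected in at least 1 sample, the median range was 0.71 on the log2 scale. Sit1 spanned 4.02-fold, Ptpn6 3.66-fold and Lcp2 3.42-fold. Dgka, Cd2, Cd6 and Prkcq (protein kinase C theta) were also above log2 10 in each sample. Other probe sets read lower, that of Prkcq at 8.18, 7.63 and 8.84 and that of Cd6 at 10.41, 9.66 and 10.63. Another Ptprc probe set was at the floor in C. The costimulatory receptor Cd28 was dim and varied, at 7.75, 9.53 and 8.66. Fyn, a Src family kinase, was detected in C and D only (7.04, 8.21 and 8.47), and Lat, the adaptor phosphorylated by ZAP70, was not detected.

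Genes of naive and quiescent T cells were largely present. Of 23 on the array, 14 were detected in all 3 samples (60.9%, beside 24.4% of all 8251 genes), 2 in 2 samples and 2 in 1. After Il7r, the brightest was Slfn2, which keeps T cells quiescent, at 12.04, 11.65 and 11.71. Il6st, the shared chain of interleukin 6 receptors, followed at 12.21, 11.78 and 11.26, and Satb1, a chromatin organizer of T cells, at 10.91, 10.95 and 11.37. Foxp1, Klf2, Btg1, Btg2 and Slfn1 formed a second tier, all within 8.93 to 11.03 but for Slfn1 in C. Klf2, a factor that controls T cell trafficking genes, was 1940 and 2263 in B against 774 and 712 in C and 703 and 691 in D, a 3.01-fold span. The lymph node homing receptor Ccr7 was faint but above the floor on all 6 arrays, between 148 and 378. Lef1, a transcription factor of naive cells, was highest in B at 797 and 765, against 222 and 332 in C and 153 and 200 in D, and its second probe set stayed at the floor. Il6ra, by contrast, was highest in D (1163 and 1178) and was not detected in B. Bcl2 was detected in B and C (8.36 and 10.04), Cd27 in D alone (8.23) and Ccr9 in B alone (7.66). S1pr1, the receptor for exit into blood, was not detected in any sample, with its highest array at 163.

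Memory genes were present beside the naive ones, in the same samples. Of 29, 14 were detected in all 3 samples (48.3%, beside 24.4% of all 8251 genes), 4 in 2, 3 in 1 and 8 in none. Lgals1, a galectin, was the brightest at 12.73, 12.27 and 12.55, followed by Crip1, S100a6 and Ahnak, all at 10.97 or higher in each sample. None of these 4 passed the test against SP cells described below, in which their mean levels were 11.30, 11.32, 11.35 and 11.18. Ccl5, a chemokine stored by memory CD8 cells, read 1557 and 1984 in B, 1533 and 1599 in C, and 3186 and 2943 in D. Cxcr3, a chemokine receptor of memory and effector cells, was even across samples at 9.39, 9.57 and 9.26, as was Klrd1 (CD94) at 9.91, 9.62 and 9.80. Itgb7 and Emb lay between 10.18 and 11.50. Eomes, a T-box factor of memory CD8 cells, was 686 and 650 in B, 657 and 582 in C, and 260 and 248 in D; its second probe set was not detected in C. Cd160 split the samples, at 1645 and 2062 in B, 289 and 373 in C, and at most 40.2 in D. Anxa2 was detected in C and D, Itgal in B and D, Itgb1 in B and C, Il18rap in D, and Ccr2 and Id2 in B. Cd44, Il2rb, Klrk1, Klrc1 and Xcl1 were not detected, the first of these reading at most 104 on any array.

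**Figure D1:**
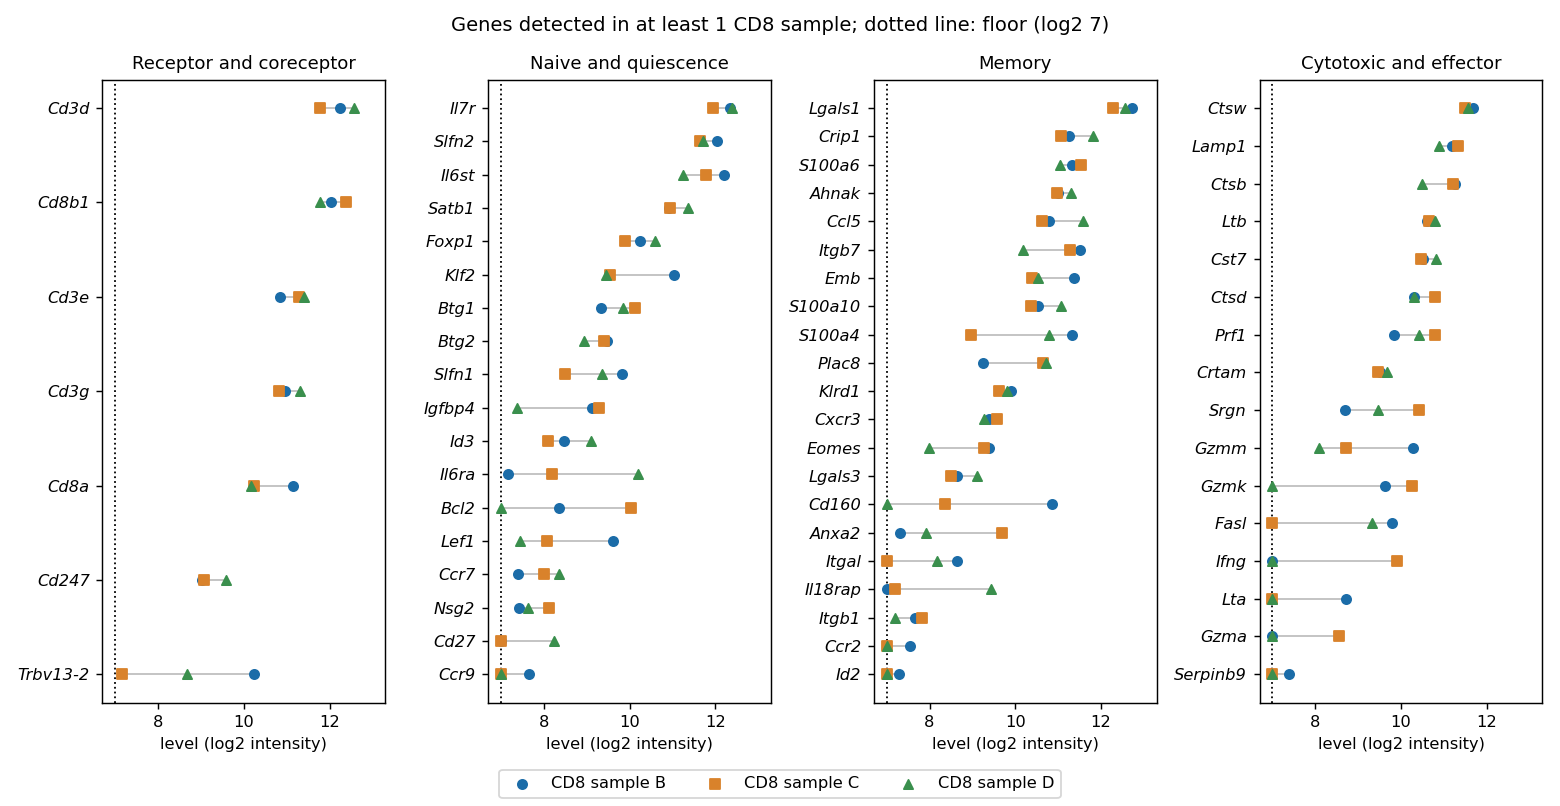
Log2 level of each gene (x axis, log2 intensity) in CD8 samples B, C and D for the genes of 4 lists that were detected in at least 1 sample; each point is the mean of 2 arrays, gray lines join the lowest and highest sample, and the dotted line is the floor at 7. Upper genes of each list lie close together in the 3 samples, while Trbv13-2, Cd160, Gzmk, Fasl and Ifng spread by more than 2.7 on the log2 scale.

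Among cytotoxic genes, some were even across the samples and others were scattered. Of 31, 10 were detected in all 3 samples, 2 in 2, 4 in 1 and 15 in none. That is 32.3% in all 3 and 48.4% in none, beside 24.4% and 57.2% of all 8251 genes. Ctsw, a cathepsin of cytotoxic lymphocytes, read 3398 and 3143 in B, 2823 and 2986 in C, and 3092 and 2944 in D, within 1.13-fold over sample means. Prf1, which encodes perforin, read 1017 and 821 in B, 1766 and 1794 in C, and 1369 and 1382 in D. Cst7, an inhibitor of cathepsins, Ltb, which encodes lymphotoxin beta, and Crtam, an adhesion receptor, were likewise within 1.28-fold. Lamp1, Ctsb and Ctsd, lysosomal genes that many cells express, were also detected in every sample. Among granzymes, Gzmm was detected in all 3 samples, but read 1348 and 1164 in B against 380 and 473 in C and 291 and 258 in D. Gzmk read 761 and 817 in B and 1308 and 1155 in C, but 29.4 and 8.10 in D. Gzma was detected in C alone, at 407 and 344, and Gzmb, the main granzyme of effector cells, stayed at or under 41.8 on every array. Fasl, the death ligand, was detected in B and D (9.78 and 9.32), and Lta in B alone (8.71). Ifng was 1094 and 840 in C and at most 7.60 on the 4 arrays of B and D, at least a 7.49-fold span. Each sample thus lacked at least 1 effector transcript that another held clearly above the floor. Gzmc, Gzmd, Gzmf, Gzmg, Klrg1, Tnf, Ccl3, Ccl4, Cx3cr1 and Prdm1 were not detected in any sample.

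Activation genes were undetected about as often as genes in general, and proliferation genes more often. In no CD8 sample were 54.5% of the activation and exhaustion genes and 75.9% of the proliferation genes detected, beside 57.2% of all 8251 genes. Of 33 activation and exhaustion genes, 4 were detected in all 3 samples, namely Jund, Rela, Nfkbia and the phosphatase gene Dusp2, and 18 in none, among them Il2ra, Fos, Jun, Nr4a1, Myc, Pdcd1 and Ctla4. Sample C alone held 4 of this list, and B and D alone held 2 each. Over all probe sets, 3.02% were detected in C alone, 2.95% in B alone and 2.75% in D alone. In C, Tnfrsf4 (OX40) read 1157 and 1307, Egr2 729 and 676, Egr1 618 and 666, and Lag3 344 and 406. Apart from Egr1, whose second array of B read 129, these 4 genes were under the floor on all arrays of B and D. Of the cytotoxic list, C alone held 2 genes, Ifng and Gzma, and B alone held 2 as well. Ier2, an immediate early gene, was detected in C and D (9.46 and 8.98), Tnfrsf18 in B and D, Bcl3 in B and C, and Batf and Dusp1 in D. Of 29 proliferation genes, 2 were detected in all 3 samples, Ccna2 (9.41 ± 0.30, SD, n = 3) and Mcm2 (8.35 ± 0.48), and 22 in none, including Mki67 and Top2a. Stmn1 was detected in C alone at 10.41, with Rrm1 at 9.10 and Mcm7 at 9.06, whereas Mcm4 was found in B alone. The NK receptor list gave 2 of 15 genes in all 3 samples, Klrd1 and Klra6, the latter at 9.59, 8.90 and 8.09. Klra3 was detected in C alone (9.82) and Klra7 in C and D (9.07 and 7.94), so that members of the Ly49 family differed between pools.

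Antigen receptor genes themselves were hardly resolved by this array, on which 73 probe sets name a variable or constant gene segment and 9 were detected in at least 1 CD8 sample. The Trbv1 probe set was even, at 2180 and 1929 in B, 2201 and 2389 in C, and 2698 and 2660 in D. For Trav9d-3, 1 probe set was even at 11.45, 11.21 and 11.39, but the other was 9.60, 8.12 and 8.29, a 2.80-fold span. Trbv13-2, a beta chain segment whose other probe set stayed at the floor, was 10.23 in B, 7.15 in C and 8.69 in D. B held the highest level of it and C the lowest, and the number of cells that carried the segment is not known.

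**Figure D2:**
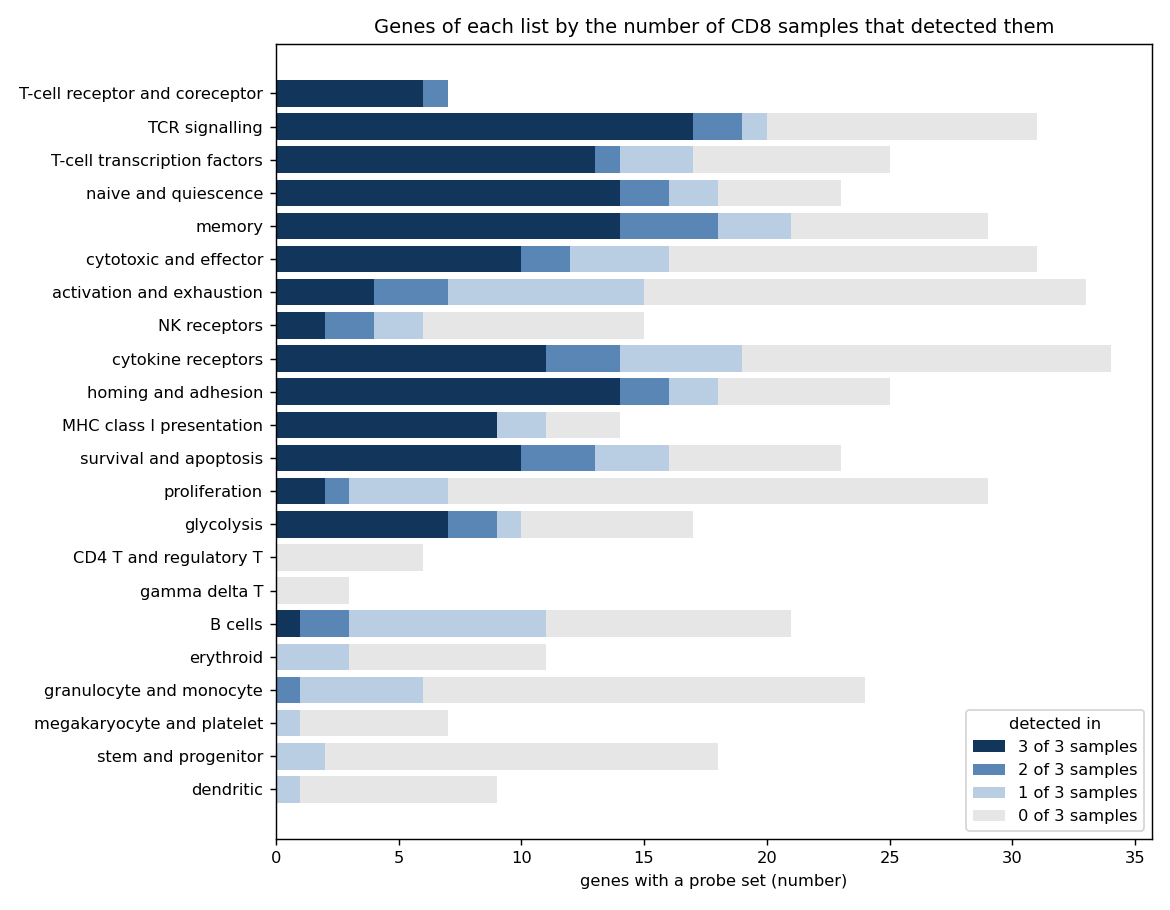
Number of genes with a probe set (x axis) in each list, divided by the number of CD8 samples, 3, 2, 1 or 0, in which both arrays exceeded the floor. Receptor and coreceptor genes were detected in all 3 samples for 6 of 7, activation and exhaustion genes for 4 of 33, and B cell genes for 1 of 21, with 8 in 1 sample and 10 in none.

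Transcripts of other marrow cells appeared, and chiefly in 1 sample at a time. In sample B, Ms4a1, which encodes the B cell surface protein CD20, read 6712 and 7352, at least 54.9-fold above C and D, where no array exceeded 12.2; its second probe set was at the floor in all samples. Sample B also held, alone, Cd79a (822 and 690), Cd74 (591 and 515), H2-Aa (538 and 595), H2-Ab1 and Fcer2a. A kappa light chain probe set that matches several genes was 11.19 in B and at the floor in C and D. Of the 21 B cell genes, 11 were detected in B, 2 in C and 2 in D, beside 27.2%, 27.9% and 27.5% of all probe sets. The summed intensity of the list was 14089 in B, 4987 in C and 3225 in D. Pax5, Ebf1, Cd22 and Blnk were not detected in any sample. The same sample was the only one in which globin was detected, Hba-a1 reading 1643 and 2149 and Hbb-b2 467 and 498, and with Alas2, a heme synthesis gene; the erythroid list summed to 2914 in B, 279 in C and 243 in D, while Gata1, Klf1 and Slc4a1 were not detected. It also held the transporter gene Abcg2 (565 and 601), as well as faint S100a8 and S100a9. Cd79b went with B and C, at 10.12 and 10.94.

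Of the 24 granulocyte and monocyte genes, 3 were detected in B, 0 in C and 4 in D, beside 27.2%, 27.9% and 27.5% of all probe sets. In D, Lyz2, which encodes lysozyme, read 1061 and 1003, the receptor gene Csf1r 683 and 601, and Tyrobp, an adaptor of myeloid and NK cells, 4205 and 4067. Neither Lyz2 nor Csf1r passed 59.8 on any array of B or C, whereas Tyrobp also read 1068 and 876 in B. Lyl1, a factor of blood stem and progenitor cells, was 3957 and 3465 in D and 9.82 on the log2 scale by its second probe set, against at most 141 on any array of B and C. The granulocyte and monocyte list summed to 1935, 655 and 6604 in B, C and D, and Mpo, Elane, Itgam, Spi1 and 14 further members of its 24 were not detected in any sample. Outside the NK receptors, Ighm was the only gene of another cell type's list found in all 3 samples, at 11.09, 11.30 and 11.30, and only 2 of its 16 probe sets were detected, both in all 3. Sample C held 2 of these genes, Ighm and Cd79b. The receptor and coreceptor list summed to 16951 in B, 15064 in C and 17143 in D. The source of the transcripts of other cell types, and their part in the differences between samples given above, was not tested.

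**Figure D3:**
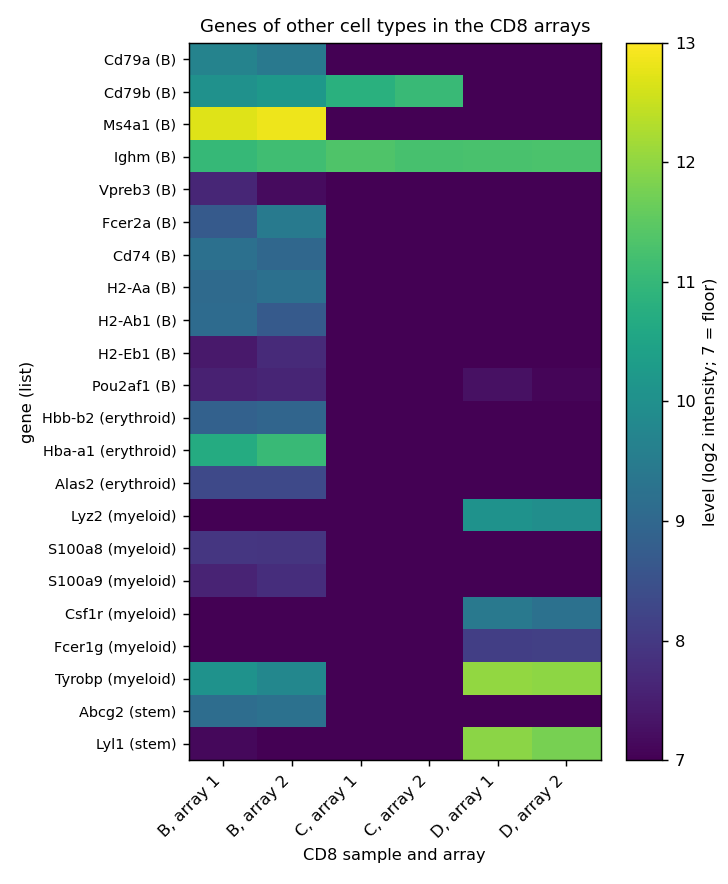
Log2 level (color, floor at 7) of genes from the B cell, erythroid, myeloid and stem cell lists that were detected in at least 1 CD8 sample, on the 6 arrays of samples B, C and D. Ms4a1, Hba-a1 and most B cell genes light up on both arrays of B, Lyz2, Csf1r and Lyl1 on both arrays of D, and Ighm on all 6 arrays.

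Over the whole array, duplicate arrays were nearly interchangeable and the 3 samples were not. Of 12422 probe sets, 3380 were detected in B, 3460 in C and 3412 in D, and 2473 in all 3; 875 were detected in 2 samples and 1083 in 1. Each pair of samples shared 79.5% to 82.3% of the probe sets that either sample detected, as a share of that sample's own list. Across the 4431 probe sets detected in at least 1 sample, Pearson's r between duplicate arrays was 0.99 in each sample. Between samples r was 0.67 for B and C, 0.70 for B and D, and 0.72 for C and D. These correlations run across probe sets, which share the brightness of their probes and are not independent. A difference over 2-fold was found for 12 to 18 probe sets between duplicate arrays, but for 1309 to 1399 between samples. No probe set differed over 4-fold between duplicate arrays, against 438 to 551 between samples. The duplicates share their amplified cDNA, so they carry the error of labeling and hybridization only, and the amplification, the cells and the animals all lie in the difference between samples and cannot be told apart.

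**Figure D4:**
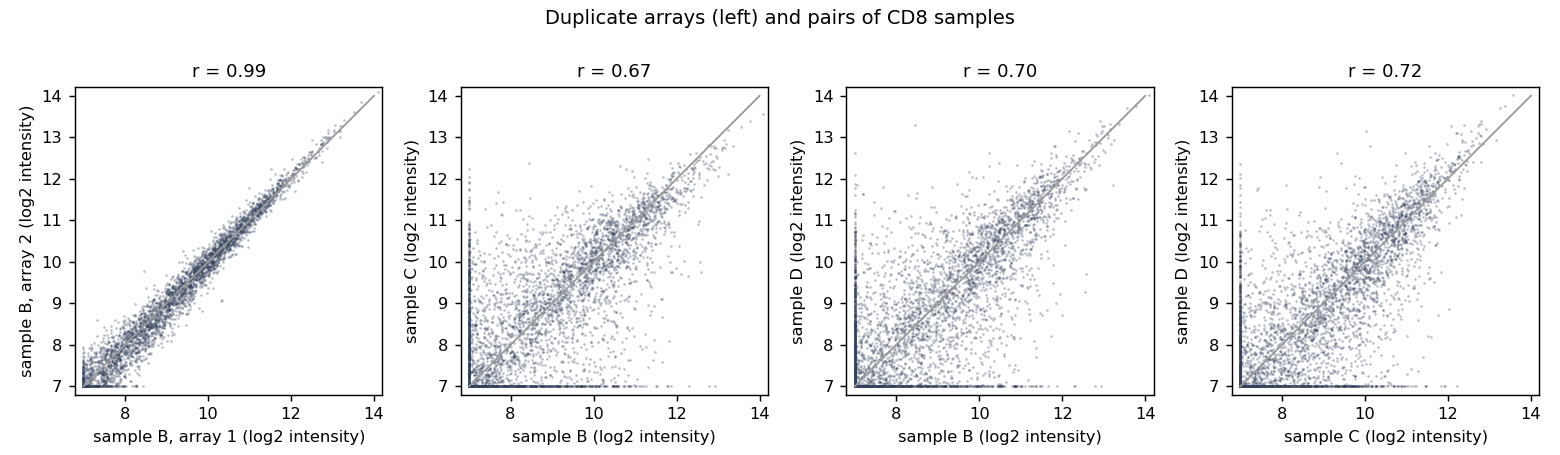
Log2 levels of the 4431 probe sets detected in at least 1 CD8 sample; the left panel sets array 1 of sample B (x axis) against array 2 (y axis), the others set the sample means against each other, and gray lines mark equality. The duplicates hug the line (r = 0.99), while pairs of samples scatter (r = 0.67, 0.70 and 0.72) and include probe sets at the floor in 1 sample and above log2 12 in the other.

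Detection in all 3 samples was more frequent among brighter probe sets, and the range between samples was widest at middle levels. Among the 169 probe sets whose brightest sample exceeded log2 12, 93.5% were detected in all 3 samples, and the median range of the sample levels was 0.61. Between 9 and 10 the share was 61.2% and the median range 1.65, beside a median of 0.31 for the largest difference between duplicate arrays. Between 7 and 8 only 8.27% were detected in all 3, and the median range was 0.51, in a bin where no range can exceed 1. Bright probe sets could still be missing from a sample. Serf2 read 7554 and 8003 in B and at most 51.7 in C and D, a span of at least 60.7-fold. Serpinb6a was at or under 30.2 in B and reached 6573 in D. Pltp, a lipid transfer protein gene, read 4873 and 4734 in C alone, and Ptpra, a receptor phosphatase gene, 3539 and 3919 in B alone. Mcur1 and Tsr3 were likewise found in C alone. Rest, Rpia, Frmd8, Idnk, Fam98a and Ppp1r7 complete the 15 widest with Ms4a1, Tyrobp and Lyl1, and in each of the 15 the duplicate arrays lay within 0.36 on the log2 scale. Of the probe sets above log2 9 in a single sample and at the floor in the other two, 66 belonged to B, 70 to C and 56 to D, so that no sample held most of them.

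**Figure D5:**
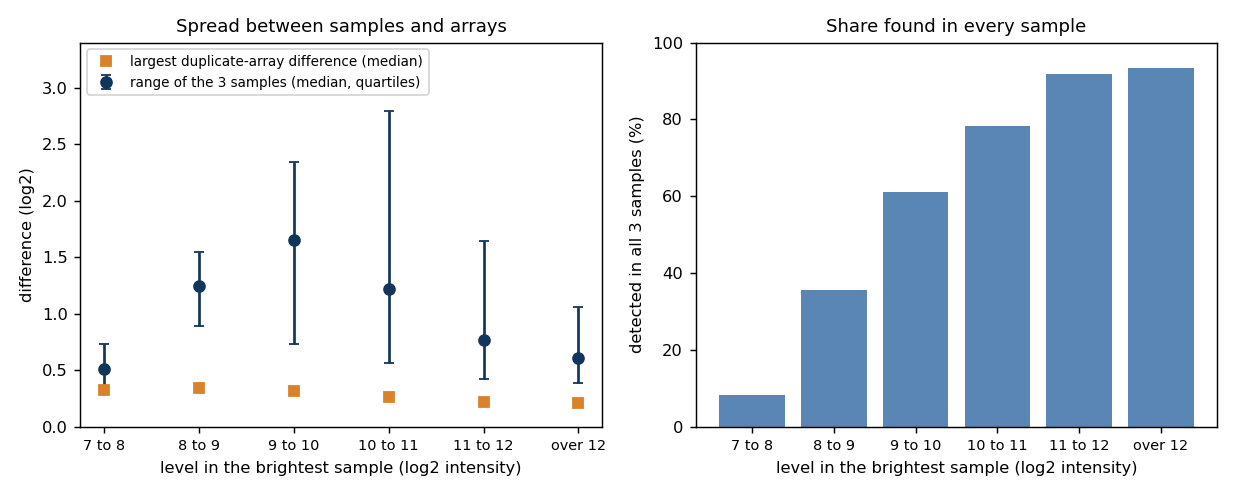
Left, range of the 3 CD8 sample levels (median with quartiles) and median of the largest difference between duplicate arrays, both in log2, by the level of the brightest sample (x axis, log2 intensity); right, percent of those probe sets detected in all 3 samples. The median sample range is 0.51 between 7 and 8, peaks at 1.65 between 9 and 10 and is 0.61 above 12, and the share detected in all 3 rises from 8.27% to 93.5%.

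Set against the 6 SP samples, genes of the receptor, signaling, naive, cytotoxic and memory lists were among those higher in the CD8 pools. In limma's moderated test, 205 of 6823 probe sets tested (3.0%) were higher in CD8 cells and 193 (2.83%) lower at a Benjamini-Hochberg adjusted p under 0.05. Of the receptor and coreceptor genes, 6 of 7 tested were higher, of TCR signaling genes 7 of 25, of naive and quiescence genes 7 of 20, of cytotoxic genes 6 of 21 and of memory genes 4 of 23. Another 2 of the 21 cytotoxic genes were called lower, Lamp2 and Ctsl, and without LSP sample A this count was 3. Lamp2, a lysosomal membrane protein gene, was not detected in any CD8 sample (limma adjusted p = 0.0070). Ctsl, a lysosomal protease gene, lay at the floor in every CD8 sample, so only its difference of -1.68 is given, a minimum in size. The median difference of these lists was 3.91, 1.27, 0.90, 0.52 and 0.94 on the log2 scale, beside -0.04 over all probe sets tested. None of 24 activation genes tested was called in either direction by limma, and 1, Dusp2, was higher at an unadjusted p under 0.05. Without LSP sample B, or with only arrays with positive values, 1 activation gene was called lower. Of 16 stem and progenitor genes tested, 8 were lower, or 5 without CD8 sample C, with a floor of 8 or without a filter on low levels. The naive count was 4 without that filter, and also 4 when only arrays with positive values entered, an alternative chosen after seeing the data. Without that filter the signaling, cytotoxic and memory counts were 5, 4 and 3. With all 18 arrays and the sample as a random block they were 9, 8 and 5. The signaling count was also 5 without CD8 sample C or D, and the cytotoxic count also 4 without USP sample N, O or Z. Because the sort used CD3 and CD8 proteins, the receptor genes check the label and are not a discovery. Zap70, Il7r, Cd3d, Cd8b1, Ctsw, Cd6, Trbv1, Rgs10, Cd3g, Crybg1 and Prf1 were among the genes that passed the filter through the CD8 samples alone. Their SP values at the floor show no spread, so their p-values rest on the spread within CD8 cells and on the variance limma shares across probe sets. The counts and medians above include such genes, also Cd8a, Cd247, Txk, Sh2d2a and Cd28, and for them only a fold bound is given. Lmo2, Tie1, Tal1, Meis1, Procr and Ctsl lay at the floor in every CD8 sample and passed the filter through the SP samples alone. Such calls follow in part from the filter, so the counts do not show that a list differs from all probe sets. By the probe set that represented it, Zap70 lay at the floor in every SP sample, which puts the CD8 level at least 57.2-fold above that floor. Another Zap70 probe set was at 7.33 in LSP sample M. For Il7r the bound was 37.5-fold and for Ctsw 23.9-fold. After Cd3d and Cd8b1, the 15 genes with the largest calls also held Slfn2, Cd2, Cd6, Trbv1, Rgs10, Ifitm10, Cd3g, Crybg1, Padi2 and Cd3e, each at 10.25 or higher in every CD8 sample. Klrd1, Cxcr3, Prf1, Ltb and Crtam were higher too, and Prf1, at the floor in every SP sample too, was at least 10.2-fold higher. Gzmk, Fasl and Cd160 missed the threshold (limma adjusted p = 0.17, 0.16 and 0.28), each being at the floor in 1 CD8 sample. Cxcr4, the receptor that holds cells in marrow, was detected in the CD8 samples at 9.21, 8.52 and 9.18 but fell by 2.09 against SP cells (limma adjusted p = 0.015). Without CD8 sample C the difference was -1.86 and no longer passed.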

How the data were processed

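Affymetrix mouse genome arrays of 6 CD8 and 12 SP ten-cell targets were used; 17 single-cell and single-cell-equivalent arrays were not. The deposited values are linear intensity values, scaled by the authors to a trimmed mean (250.1 to 250.2 on the CD8 arrays); although the methods describe RMA, these are not RMA values. Every column of the file belonged to a sample of the series. The array number limits precision; no depth applies. The 66 control probe sets were left out. Intensities below 128 (log2 7) were set to it, a floor taken from earlier processing of these data, where it had been compared with detection calls. Duplicate arrays were averaged on the log2 scale, giving 3 samples per population. Genes came from the platform annotation: 10833 probe sets name 1 gene, 396 several and 1193 none; 10817 matched RefSeq. A gene with several probe sets was represented by the brightest over all 9 samples. Of 602 such genes detected in all 3 CD8 samples, 394 had another probe set detected in none. Levels and agreement were described without a test. CD8 was compared with the mean of LSP and USP in limma 3.58.1 (R 4.3.3) over probe sets above the floor in a sample; code was tested on simulated data. Nothing in the labels says that samples came from separate animals, so p-values measure the spread between samples. Members and lists were chosen with earlier results of these data known. Named were the markers, the 20 brightest genes' probe sets, in each list up to 8 members by level and those in 1 or 2 samples, the 15 widest ranges and the 15 largest calls; other names, mostly undetected genes, were chosen after their values were seen. Alternatives covered floor, filter, normalization, duplicates, detection rule and each sample left out.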

Additional observations from a re-analysis of the deposited data

How the results depend on the processing

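Counts of probe sets called against SP cells were 205 higher and 193 lower. Without a filter on low levels they were 119 and 95, and treating all 18 arrays with the sample as a random block gave 377 higher. The array numbers did not pair the samples (median correlation of deviations -0.01, from -0.18 to 0.25), and the replicate block on the array number gave 362 higher and 277 lower. Leaving out each sample in turn gave 155 to 204 higher and 95 to 239 lower, with 101, 95 and 102 lower without CD8 samples B, C and D; a smaller group has fewer samples, and a further cause was not tested. Keeping only arrays with positive values, chosen after seeing the data because 9 of 12 SP arrays hold negative ones, gave 272 and 230. None of 58 genes named with a call, or among the markers, changed direction under any alternative, but calls were lost, for 22 of them without CD8 sample C. Those lost most often were Nsg2, Ccr7 and Tap1. Without any single CD8 sample, 2736 to 2808 probe sets were detected in both others, naive genes numbered 14 to 15, memory genes 15 to 16 and cytotoxic genes 10 to 11. A detection level of 9 left 1279 probe sets in all 3 samples. Over all probe sets the median r between samples was 0.84, since most lie at the floor. Ranges over 2-fold numbered 2156, and over 4-fold 919. Low intensity is a limit: a gene below 128 was not measured, and 3 pools of 40 cells bound what the spread can show.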

Other observations

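Of 14 MHC class I presentation genes, 9 were detected in all 3 samples (64.3%, beside 24.4% of all 8251 genes). Tap1, a subunit of the peptide transporter, was 11.01, 10.86 and 11.09 in B, C and D, and Tapbp, which encodes tapasin, was 11.43, 11.35 and 11.60. Psme1, an activator of the proteasome, was 12.08, 11.69 and 12.31. B2m lay at 10.20, 10.70 and 10.46. Psmb9, an immunoproteasome subunit, was at 10.46 in B and the floor in C and D. It was 1 of 2 genes of this list detected in B alone, and 3 were detected in none.

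Of 34 genes of cytokine receptors and their signaling, 11 were detected in all 3 samples (32.4%, beside 24.4% of all 8251 genes). Some were even while others were not. Jak1 was 10.94, 11.03 and 11.01, Ifngr1 9.02, 9.14 and 9.05, and Ifnar2 12.27, 11.86 and 11.53, although its second probe set was 10.83, 10.08 and 8.51. Il4ra was 11.02, 9.05 and 10.19, and Tnfrsf1a lay at the floor in B and at 8.91 and 8.12 in C and D. Il27ra was at the floor in B but 10.44 and 10.10 in C and D. Of 23 survival and apoptosis genes, 10 were detected in all 3 samples (43.5%, beside the same 24.4%). Among them, Mcl1, which sustains T cells, was at 11.22, 11.39 and 11.47 and Traf1 at 11.06, 11.46 and 11.15. The death effector gene Bak1 was at 12.06, 10.38 and 10.98. Fadd was 10.22 and 8.66 in B and C and at the floor in D. Of 17 glycolysis genes, 7 were detected in all 3 samples (41.2%, beside the same 24.4%). Pfkp was at 10.45, 11.62 and 11.07, Aldoa at 10.78, 10.48 and 10.19 and Hk1 at 7.91, 7.86 and 7.66. Another Pfkp probe set was 10.32 in B and 11.18 in C but at the floor in D. Of 4 sex-linked genes with a probe set, the Y-linked gene Eif2s3y was detected in all 3 samples (8.61, 9.05 and 7.76). The other 3, Xist among them, were detected in none. Detection of Eif2s3y matches the male label, while the genes at the floor were not measured.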
